A study of Mus musculus with 16 samples.

Results

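The replication-dependent histone genes encode the core histones H2A, H2B, H3 and H4 and the linker histone H1, and in the mouse most of them lie in a few dense gene clusters. They were taken as every row of the deposited table whose symbol begins with Hist1h, Hist2h, Hist3h or Hist4, the older naming of these clusters. The rule found 67 of the 21924 protein-coding genes: 6 for H1, 18 for H2A, 18 for H2B, 12 for H3 and 13 for H4. Of these, 54 lie on chromosome 13, 10 on chromosome 3, 2 on chromosome 11 and 1 on chromosome 6.

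The cells were germline stem (GS) cells, long-term cultures of mouse spermatogonial stem cells that grow on a layer of mouse embryonic fibroblasts with the growth factors GDNF and FGF2. The 16 libraries fell into 8 groups of 2. Wild type DBA/2 cells were kept at 20% oxygen or at 1% oxygen, and so were cells of a Hif1a line (129 x C57BL/6 mixed background) labelled wild-type or KO. Hif1a encodes the oxygen-regulated subunit of the transcription factor HIF-1, and the KO cells received AxCANCre, an adenovirus carrying Cre recombinase, on the day hypoxia began. Cells of a Top1mt line (C57BL/6), labelled wild type or KO for the mitochondrial DNA topoisomerase, were sequenced at 1% oxygen only. The series text gives 2 days at 1% oxygen, but Hif1a line libraries at that oxygen level are named with 6d and the Top1mt libraries with 2d. The labels used here do not say whether wild type cells received a control virus or whether the 2 libraries of a group came from separate cultures, so p-values measure only the spread between these libraries, which may be technical.

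Replication-dependent histone mRNAs are the metazoan mRNAs that end without a poly(A) tail. Their 3′ end is cut just after a conserved stem-loop, which the protein SLBP binds, and their level is tied to S phase: it climbs as DNA replication begins and falls quickly when replication stops. Some of these genes, among them Hist1h1c, Hist1h2bc and Hist2h2be, also make polyadenylated forms, which can run past the stem-loop to a downstream poly(A) site. Such forms are known from cells that have left the cycle. The TruSeq stranded mRNA kit used here enriches RNA with a poly(A) tail, so the values below are those of polyadenylated histone RNA and of whatever tailless RNA came through the selection, and they are not the full amount of histone mRNA.

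The stem-loop is shown first because where a transcript ends relative to it separates the kinds of gene model in this family. In the transcript models of GENCODE M21 (GRCm38, the mm10 build), 45 of the 67 genes held the histone stem-loop consensus after the stop codon, in 8 sequences. The 4 that members described below carry are given 5′ to 3′ as DNA letters, with the 4-base loop in capitals and the stem on either side in lower case.
Hist1h1c: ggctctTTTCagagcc
Hist1h1t: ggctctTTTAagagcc
Hist1h4h: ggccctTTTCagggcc
Hist1h4i: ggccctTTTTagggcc
The sequence of Hist1h1c was shared by 25 genes, of classes H1, H2A, H2B and H3. The sequence of Hist1h4h was found in 7 genes and that of Hist1h4i in 2, Hist1h4i and Hist2h4, all of class H4. The sequence of Hist1h1t, the testis-specific linker histone, was found in 6 genes of classes H1, H2B and H3.

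The model of 23 genes ran at least 100 bases past the stem-loop, that of 22 genes ended within 100 bases of it, and that of another 22 genes held no stem-loop, in part because it stopped at the coding sequence. Hist1h1c (chromosome 13, 23738808 to 23740367, 1 exon) encodes a linker histone, and its model ran 840 bases past the stem-loop. Hist1h2bc (chromosome 13, 23684199 to 23692908) encodes an H2B, and its model is spliced from 2 exons and holds no stem-loop. Hist1h4i (chromosome 13, 22040636 to 22041362, 1 exon) encodes H4, and its model ran 330 bases past the stem-loop. Hist1h2be (H2B; chromosome 13, 23583670 to 23621124, 2 exons) ran 1861 bases past it. Hist1h1d (a linker histone; chromosome 13, 23553262 to 23560686, 1 exon) ran 4884 bases past it, and Hist2h3c1 (H3; chromosome 3, 96246685 to 96248509, 1 exon) ran 1167 bases past it. Among the better detected members, Hist1h4h (chromosome 13, 23531050 to 23531519, 1 exon) ended 46 bases after the stem-loop. Of the 22 models that ended within 100 bases, only that of Hist1h4h held a poly(A) signal (AATAAA or ATTAAA) near its end.

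Promoters of these genes are short and share elements, so they were searched for 3 motifs on both strands: TATAAA (the TATA box), CCAAT (the CCAAT box) and ATTTGCAT (the octamer bound by OCT1, encoded by Pou2f1). RefSeq promoter windows (GRCm38.p6, 250 bases before to 50 after the start) were searched for the 61 of 67 genes that matched 1 window gene, and Hist1h2ap, which matched more than 1, was left out. TATAAA was present in 35 of the 61 windows (57.4%), against 13.6% of all 32851 windows in the table. CCAAT was present in 52 (85.2%, against 37.4%), in every H1, H2A, H2B and H3 window but in only 3 of the 12 H4 windows. The octamer was present in 14 (23.0%, against 1.74%), and those were 7 of 17 H2A and 7 of 16 H2B windows. H2A and H2B genes often lie head to head, and such neighbours share parts of their windows. The 250 bases before the start are printed for a gene without and a gene with the octamer, with matches in capitals.
Hist1h1c, chr13:23738557-23738806, plus strand: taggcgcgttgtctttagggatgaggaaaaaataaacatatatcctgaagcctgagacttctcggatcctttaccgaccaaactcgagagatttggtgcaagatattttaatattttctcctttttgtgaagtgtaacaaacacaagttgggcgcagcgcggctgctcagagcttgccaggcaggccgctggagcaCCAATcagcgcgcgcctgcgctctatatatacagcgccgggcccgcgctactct
Hist1h2ac, chr13:23683960-23684209, minus strand: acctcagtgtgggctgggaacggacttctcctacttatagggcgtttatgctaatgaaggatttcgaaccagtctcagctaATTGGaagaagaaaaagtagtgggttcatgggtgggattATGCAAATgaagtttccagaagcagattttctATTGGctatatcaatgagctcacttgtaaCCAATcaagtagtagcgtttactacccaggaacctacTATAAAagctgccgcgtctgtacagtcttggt
The stretch printed for Hist1h2ac, an H2A gene, lies mostly between it and Hist1h2bc, which is transcribed the other way. Its far end reaches into the Hist1h2bc model, which starts at 23684199. A match describes letters only, and binding at these sites was not measured.

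Reads on the table's genes ran from 11942104 to 25659895 a library, so that 1 read stood for 0.0390 to 0.0837 CPM (counts scaled to a library total of 1000000 on these genes). Top1mt read 10.5 ± 0.685 CPM (SD, n = 2) in the libraries labelled Top1mt KO and 33.8 ± 1.36 (SD, n = 2) in their wild type. Hif1a went against its label: it read 141 ± 1.86 CPM (SD, n = 2) in the libraries labelled Hif1a KO and 117 ± 1.11 (SD, n = 2) in their wild type at 20% oxygen, and 606 ± 17.7 against 251 ± 0.015 at 1%. The labels used here do not say which exons the deletion removes, so RNA from outside them could not check the label, and these libraries are called labelled Hif1a KO. All 16 germ cell markers averaged over 1 CPM, with sums of 1676 to 5360 CPM a library. All 20 fibroblast markers did so as well, with sums of 7828 to 74727 CPM, while 8 of 12 testis somatic markers and 3 of 8 leukocyte markers averaged under 1 CPM. In such bulk cultures, fewer cells of a type and less RNA per cell cannot be told apart.

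Histone cluster RNA was scarce, and a few genes made up most of it. Of the 67 genes, 15 averaged at least 1 CPM over the 16 libraries and 6 averaged at least 5 CPM. Hist1h1c averaged 59.5 CPM and Hist1h2bc 29.9, and together they made up 63.2% of the summed level. With Hist1h4i (10.5 CPM) the share was 70.7%. Next came Hist1h2be (5.88), Hist2h3c1 (5.70) and Hist1h1d (5.66), and each class thus had 1 leading member: Hist1h1c for H1, Hist3h2a (2.46) for H2A, Hist1h2bc for H2B, Hist2h3c1 for H3 and Hist1h4i for H4. The median member read 1.24 CPM in class H1, 0.0797 in H2A, 0.188 in H2B, 0.283 in H3 and 0.344 in H4.

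Detection varied widely. Of the 67 genes, 30 had reads in all 16 libraries, and 7 had none in any: Hist1h2ao, Hist1h2ap, Hist1h2bq, Hist1h2br, Hist1h4m, Hist2h2aa1 and Hist2h2aa2. A count of 0 allows up to 3 reads, or 0.117 to 0.251 CPM depending on the library, for counting error only. Many members are near copies of each other, and the labels used here do not say how reads that fit several genes were counted, so levels of such members, and these values of 0, are uncertain. The median member of class H2A shared 73.0% of its 50-base stretches with transcripts of other genes, against 1.13% in H1. Hist2h3c1 shared all of them, with Hist2h3c2, Hist2h3b and the noncoding Gm20634 that overlaps it on the same strand, while Hist1h1c shared 8.54% and Hist1h2bc 30.1%. Hist1h2be overlaps Hist1h1e on the same strand, Hist3h2a overlaps Trim17 on the same strand, and Hist2h2bb overlaps a noncoding gene on each strand, and the strand setting of the counting is unknown, so their reads may be split or lost as well.

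The testis histones were at the edge of detection in these undifferentiated cells. Hist1h2aa, the testis H2A, averaged 0.254 CPM and ranged from 0 to 0.635. Hist1h1t averaged 0.174 CPM and ranged from 0 to 0.385, and Hist1h2ba, the testis H2B, averaged 0.0917 CPM and ranged from 0 to 0.186. The highest Hist1h2aa values were those of DBA/2 at 1%, 0.499 and 0.635 CPM, against 0.186 and 0.0853 at 20%.

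Levels per length differed with the end of the gene model. The median over the 23 genes whose model ran past the stem-loop was 0.610 CPM per kb, against 0.198 over the 22 that ended at it and 0.25 over the 22 with no stem-loop. Of the 15 genes with a mean of at least 1 CPM, 10 were of the first kind, 1 (Hist1h4h) of the second and 4 of the third. Hist1h1c reached 38.1 CPM per kb, Hist1h2bc 25.9, Hist1h4i 14.5 and Hist1h4h 3.27. This order is a description without a test, since the models differ in length and in the share of sequence that other genes hold too: the median member ending at the stem-loop shared 59.9% of its 50-base stretches, and the median member running past it 24.6%.

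**Figure D1:**
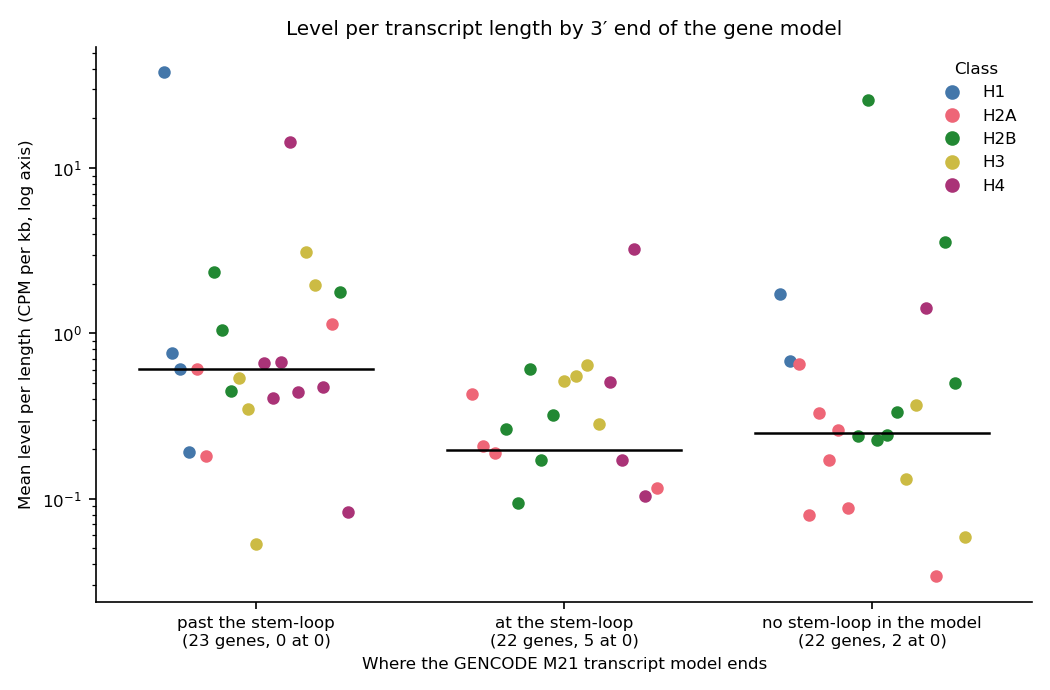
Mean level per transcript length (CPM per kb, log axis, mean of 16 libraries) of each histone cluster gene, by where its GENCODE M21 model ends and coloured by class; black lines are medians over all genes of a kind, and the 7 genes at 0 cannot be drawn on this axis. The median is 0.610 for models past the stem-loop, 0.198 for models ending at it and 0.25 for models without one, with wide overlap.

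Summed over the 67 genes, the histone level was lowest in DBA/2 at 20% oxygen and highest in labelled Hif1a KO at 1%. The sums of the 2 libraries were 48.0 and 42.5 CPM in DBA/2 at 20% and 87.1 and 85.8 at 1%. In the Hif1a line they were 81.0 and 81.1 in wild type at 20%, 117 and 142 in wild type at 1%, 111 and 130 in labelled KO at 20%, and 331 and 308 in labelled KO at 1%. In the Top1mt line at 1% they were 119 and 110 in wild type and 225 and 245 in KO. Sums overlapped between neighbours in this order only among Hif1a wild type at 1%, labelled Hif1a KO at 20% and Top1mt wild type at 1%. These sums are descriptions and were not tested.

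**Figure D2:**
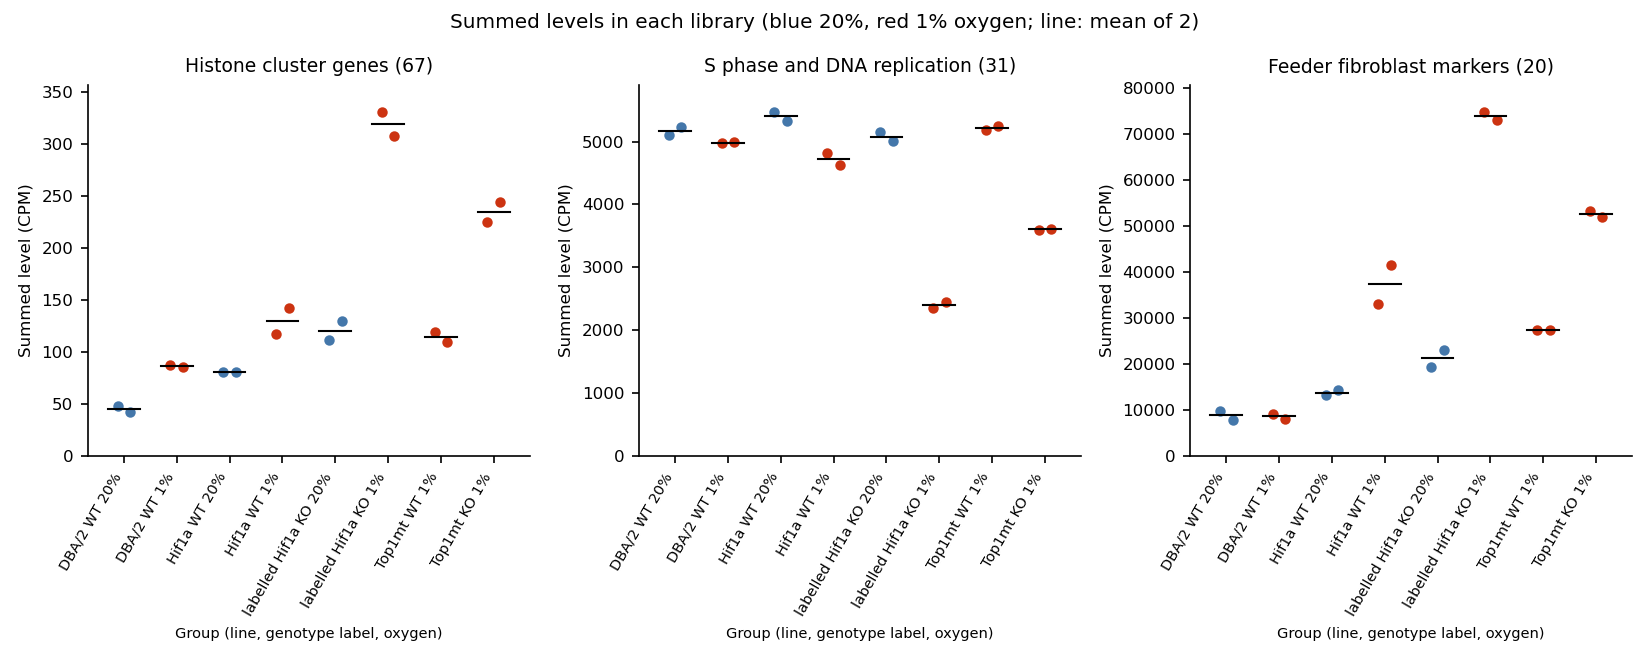
Summed levels (CPM) of the 67 histone cluster genes, of 31 S phase and DNA replication genes and of 20 fibroblast markers in each library (points), with the mean of each group of 2 (lines). The histone sum runs from 42.5 to 331 CPM and is highest in the libraries labelled Hif1a KO at 1% oxygen, where the S phase sum is lowest (2352 and 2446 CPM) and the fibroblast sum highest (74727 and 72902 CPM).

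For the tests, 20 of the 67 genes reached 1 CPM in at least 2 libraries. They were the 20 with the highest mean, and each reached 1 CPM in at least 2 groups. Hist2h4, Hist1h2bh and Hist1h2bg reached it only in labelled Hif1a KO and Top1mt KO at 1% oxygen. Hist3h2ba, Hist1h3d and Hist1h4d reached it in more groups, but only in libraries at 1% oxygen. Within the Hif1a line, Hist1h3d reached it only in labelled KO. For all these genes, calls that place such groups above others rest on the values that let them be tested. The 20 genes are not all members, and the filter favours genes that are high in some group, so counts over them describe these 20. The other 47 had a median of 32 reads summed over all libraries and never passed 1.28 CPM. Differences below are limma estimates on log2(CPM + 1), a scale that understates the change of genes near 1 CPM, with Benjamini-Hochberg adjusted p-values over all 14841 genes tested, and a gene is called at an adjusted p of 0.05 or less.

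In DBA/2 wild type cells, 1% oxygen went with higher histone levels in every class. Of the 20 genes tested, 14 were called higher and none lower (0 lower at an unadjusted p under 0.05, and 0 by edgeR and by DESeq2). Over all genes, 31.8% were called higher and 25.5% lower, 57.4% in all. The median difference of the 20 was 0.63, against 0.04 over all genes. Called higher were 2 of 4 H1 genes, both H2A genes, 5 of 7 H2B genes, 2 of 3 H3 genes and 3 of 4 H4 genes.

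Hist1h1c read 17.8 and 14.3 CPM at 20% and 25.4 and 23.4 at 1%, a rise of 0.59 ± 0.10 (log2, SE; adjusted p = 8e-05). Hist1h2bc read 11.4 and 10.6 CPM at 20% and 21.4 and 19.4 at 1%, a rise of 0.84 ± 0.12 (adjusted p = 8.2e-06). Both linker and H2B leaders were thus higher in each library at 1% than in any at 20%. Hist1h1d read 1.02 and 0.768 CPM at 20% and 3.14 and 3.27 at 1%, a rise of 1.15 ± 0.14 (adjusted p = 1.1e-06). Hist2h3c1 read 1.35 and 1.96 CPM at 20% and 5.99 and 4.49 at 1%, a rise of 1.23 ± 0.15 (adjusted p = 1.1e-06). For these H1 and H3 genes the lowest library at 1% was over the highest at 20%, with no overlap.

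The smaller clusters moved as well. Hist3h2a, an H2A gene on chromosome 11, read 0.559 and 0.683 CPM at 20% and 2.59 and 2.45 at 1%, a rise of 1.12 ± 0.18 (adjusted p = 3.3e-05). Its neighbour Hist3h2ba, an H2B gene, read 0.372 and 0.256 CPM at 20% and 1.15 and 2.36 at 1%, a rise of 1.03 ± 0.19 (adjusted p = 9.7e-05). Both were low at 20%. Hist3h2ba reached 1 CPM only in libraries at 1% oxygen, and so did Hist1h3d and Hist1h4d, which were called here too. Those calls thus rest on the values that let these genes be tested. Hist1h1a, a linker histone, read 1.07 and 1.41 CPM at 20% and 1.25 and 1.41 at 1%, and its groups overlapped. Of the calls, 11 held when any one of the 4 DBA/2 libraries was left out. The call of Hist1h4h was lost without the second library at 20% (adjusted p = 0.27) and without either library at 1% (0.054 and 0.2). That of Hist1h4d was lost without the second library at 20% (0.14) or at 1% (0.11), and that of Hist1h2bg without the first at 1% (0.052).

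In DBA/2, cell cycle and cell type genes were called in both directions. Of 31 S phase and DNA replication genes, 7 were called higher and 15 lower, and their sum was 5109 and 5240 CPM at 20% and 4971 and 4993 at 1%. The fibroblast markers summed to 9875 and 7828 CPM at 20% and 9143 and 8139 at 1%, with 4 of 20 called higher and 9 lower. Of 16 germ cell markers, 2 were called higher and 10 lower. The mean histone sum was 45.2 CPM at 20% and 86.5 at 1%, a ratio of 1.91. The fibroblast sums of the groups overlapped, and the part of the other gene groups in the histone ratio was not tested.

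In wild type cells of the Hif1a line, linker histone genes led the difference between 1% and 20% oxygen. Of the 20 genes, 7 were called higher (Hist1h1c, Hist1h2bc, Hist1h4i, Hist2h3c1, Hist1h1d, Hist2h2bb and Hist1h1e) and none lower (0 lower at an unadjusted p under 0.05, and 0 by edgeR and by DESeq2). Over all genes, 18.4% were called higher and 34.6% lower, 53.1% in all. Of called genes 34.7% were higher, or 49.7% with median-of-ratios scaling. The median difference of the 20 genes was 0.37, against -0.09 over all genes. Of the 4 H1 genes 3 were called, and neither of the 2 H2A genes.

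Hist1h1c, the leading gene here too, read 31.9 and 33.2 CPM at 20% and 56.7 and 67.5 at 1%, a rise of 0.91 ± 0.10 (adjusted p = 5.5e-07). Hist1h1d read 3.12 and 3.16 CPM at 20% and 4.88 and 5.01 at 1%, a rise of 0.52 ± 0.14 (adjusted p = 0.0044). These linker histone calls were the only 2 that held when any one of the 4 libraries was left out. Hist1h2bc read 16.5 and 15.3 CPM at 20% and 17.7 and 25.9 at 1%, so 1 library at 1% lay close to those at 20%. Its difference was 0.41 ± 0.12 (adjusted p = 0.0079), and 0.15 without the second library at 1% (adjusted p = 0.27). Hist1h2be read 2.70 and 2.53 CPM at 20% and 2.99 and 2.53 at 1%, and its groups overlapped. The count of 7 fell to 3 without the second library of wild type at 1% and to 4 without the first at 20%.

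In these wild type cells the fibroblast markers summed to 13245 and 14256 CPM at 20% and 33079 and 41481 at 1%, with 15 of 20 called higher and 2 lower. S phase genes were called higher in 0 and lower in 21 of 31 cases, 13 of them with median-of-ratios scaling. The part of these shifts in the histone values was not tested. Each library name within a line carries its own number, and the labels used here do not say what the numbers stand for. In the Hif1a line, the names at 1% also end in the letter B, for wild type and labelled KO alike, and those at 20% do not. What B stands for is not given, so it and oxygen cannot be told apart in this line.

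The largest histone levels were in the libraries labelled Hif1a KO at 1% oxygen. Against the same label at 20%, 16 of the 20 genes were called higher and none lower (0 lower at an unadjusted p under 0.05, and 0 by edgeR and by DESeq2). Over all genes, 25.2% were called higher and 54.7% lower, 79.9% in all. Of called genes 31.6% were higher, or 53.0% with median-of-ratios scaling. That scaling moved the median of all genes from -0.29 to 0.02. The median of the 20 histone genes was 1.12, and 1.39 with that scaling.

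Hist1h1c read 43.3 and 53.5 CPM at 20% and 145 and 132 at 1%, a rise of 1.51 ± 0.10 (adjusted p = 6.1e-11). Hist1h2bc read 23.4 and 28.9 CPM at 20% and 62.4 and 62.0 at 1%, a rise of 1.23 ± 0.12 (adjusted p = 1.4e-08). Hist1h4i, the leading H4 gene, read 9.38 and 9.80 CPM at 20% and 21.8 and 22.3 at 1%, a rise of 1.12 ± 0.14 (adjusted p = 5.8e-07). In these 3 genes, which carried most histone reads, each library at 1% was more than double any at 20%. Hist1h1d rose by 1.55 ± 0.14 (adjusted p = 4.5e-09), from 5.53 and 5.43 CPM to 18.1 and 17.8. Hist1h2be rose by 1.46 ± 0.13 (adjusted p = 3e-09), from 5.28 and 6.01 CPM to 17.3 and 17.1. Hist1h4h, whose model ends soon after the stem-loop, read 1.59 and 1.42 CPM at 20% and 5.64 and 4.25 at 1%, a rise of 1.24 ± 0.19 (adjusted p = 6e-06). Its model holds a poly(A) signal near its end, so whether these reads are of tailless RNA is unknown.

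The 4 genes not called were Hist1h1a, Hist2h2be, Hist1h4d and Hist3h2ba. Hist3h2ba read 0.670 and 0.474 CPM at 20% and 0.513 and 0.624 at 1%, with overlapping groups, while Hist3h2a beside it read 1.34 and 2.27 at 20% and 5.84 and 4.72 at 1% (1.18 ± 0.18, adjusted p = 6.9e-06). Of the calls, 14 held when any one of the 4 libraries was left out. That of Hist2h3c2 was lost without the first library at 20% (adjusted p = 0.09) or at 1% (0.051), and that of Hist1h2bg without the second at 1% (0.13).

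Among the other gene groups, all 31 S phase genes were called lower, and their sum went from 5146 and 5011 CPM at 20% to 2352 and 2446 at 1%. All 16 germ cell markers were called lower, with sums of 3690 and 3481 CPM at 20% and 1676 and 1764 at 1%. All 20 fibroblast markers were called higher, with sums of 19413 and 22949 CPM at 20% and 74727 and 72902 at 1%. With median-of-ratios scaling, 30 S phase genes, 16 germ cell markers and 20 fibroblast markers kept those calls. Leukocyte markers were called higher in 5 of 7 cases and lower in 0, with sums of 17.8 and 29.0 CPM at 20% and 37.6 and 49.9 at 1%. The ratio of the histone sums was 2.65, and the part of the other gene groups in it was not tested.

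The labelled KO and the wild type of the Hif1a line differed in histone level already at 20% oxygen. There, 8 of the 20 genes were called higher and none lower (0 lower at an unadjusted p under 0.05, and 0 by edgeR and by DESeq2), against 12.9% and 9.55% of all genes (22.4% in all). The median difference of the 20 was 0.32, against -0.03 over all genes. Hist1h2be, with the largest of these differences, read 5.28 and 6.01 CPM against 2.70 and 2.53 in wild type, a difference of 0.88 ± 0.13 (adjusted p = 0.00011). Hist1h2ac read 1.67 and 1.53 CPM against 0.551 and 0.574, a difference of 0.73 ± 0.17 (adjusted p = 0.0038). The other called genes were Hist1h1c (0.55 ± 0.10), Hist1h2bc (0.68 ± 0.12), Hist1h1d (0.65 ± 0.14), Hist2h3c1 (0.54 ± 0.15), Hist2h3c2 (0.78 ± 0.20) and Hist1h4h (0.72 ± 0.19). The calls of Hist1h4h, Hist2h3c1 and Hist2h3c2 were lost without the first wild type library (adjusted p of 0.099, 0.12 and 0.06), which lowered the count to 5, and each was lost as well without 1 library of labelled KO. Fibroblast markers were called higher in 19 of 20 cases and S phase genes lower in 4 of 31.

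At 1% oxygen the same comparison gave 16 of 20 genes higher and 1 lower, against 28.3% and 49.1% of all genes (77.4% in all). Of called genes 36.6% were higher, or 54.2% with median-of-ratios scaling, which moved the median of all genes from -0.21 to 0.03. The median of the 20 was 1.05. This comparison shares its labelled KO libraries with the oxygen comparison above. Hist1h2be, an H2B gene, differed most, with 17.3 and 17.1 CPM against 2.99 and 2.53 in wild type (2.28 ± 0.13, adjusted p = 9.8e-12). Hist1h4h read 5.64 and 4.25 CPM against 0.583 and 1.01 (1.73 ± 0.19, adjusted p = 7.5e-08). Hist1h1d was higher by 1.67 ± 0.14 (adjusted p = 1.9e-09) and Hist1h2bc by 1.49 ± 0.12 (adjusted p = 9.6e-10), and no library of the 2 groups overlapped in these genes. The 1 gene called lower was Hist3h2ba, with 0.513 and 0.624 CPM against 1.68 and 1.26 in wild type (-0.65 ± 0.19, adjusted p = 0.0035), a call that DESeq2 did not make. Of the 16 higher calls, 15 held without any one library, and that of Hist1h2bg was lost without the second of wild type (adjusted p = 0.056) or of labelled KO (0.3). All 20 fibroblast markers and 4 of 7 leukocyte markers were called higher and 30 of 31 S phase genes lower.

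The oxygen responses of labelled Hif1a KO and wild type differed for most of the tested genes. The test of that difference called 13 of 20 genes higher and none lower (0 lower at an unadjusted p under 0.05, and 0 by edgeR and by DESeq2), against 19% and 39% of all genes (58% in all). Of called genes 32.8% were higher, or 61.4% with median-of-ratios scaling, which moved the median of all genes from -0.17 to 0.07. The median of the 20 was 0.65. Hist1h2be had the largest difference, 1.40 ± 0.18 (adjusted p = 3.5e-06): its mean went from 2.61 to 2.76 CPM in wild type and from 5.64 to 17.2 in labelled KO. Hist1h2bh, an H2B gene near 1 CPM, followed with 1.11 ± 0.28 (adjusted p = 0.0023), but passed the filter only through labelled Hif1a KO and Top1mt KO at 1%. Hist1h4h had 1.01 ± 0.27 (adjusted p = 0.0034). Among the 6 members with the highest mean, Hist1h1d came next with 1.03 ± 0.20 (adjusted p = 0.00024), then Hist2h3c1 with 0.91 ± 0.21 (adjusted p = 0.0013) and Hist1h2bc with 0.82 ± 0.17 (adjusted p = 0.00046). Hist1h1c, called in both genotypes, had 0.60 ± 0.15 (adjusted p = 0.0017). Without any one of the 8 libraries, 8 calls held: those of these 7 genes and of Hist1h4i. Those of Hist1h2ac, Hist1h3d, Hist2h2bb, Hist2h4 and Hist3h2a were each lost without 1 of at least 2 libraries, at adjusted p-values of 0.056 to 0.19. DESeq2 called 8 genes and edgeR 9, and the call of Hist1h4h was lost with both (adjusted p = 0.078 and 0.073). In the same test 30 of 31 S phase genes were lower and 16 of 20 fibroblast markers higher.

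**Figure D3:**
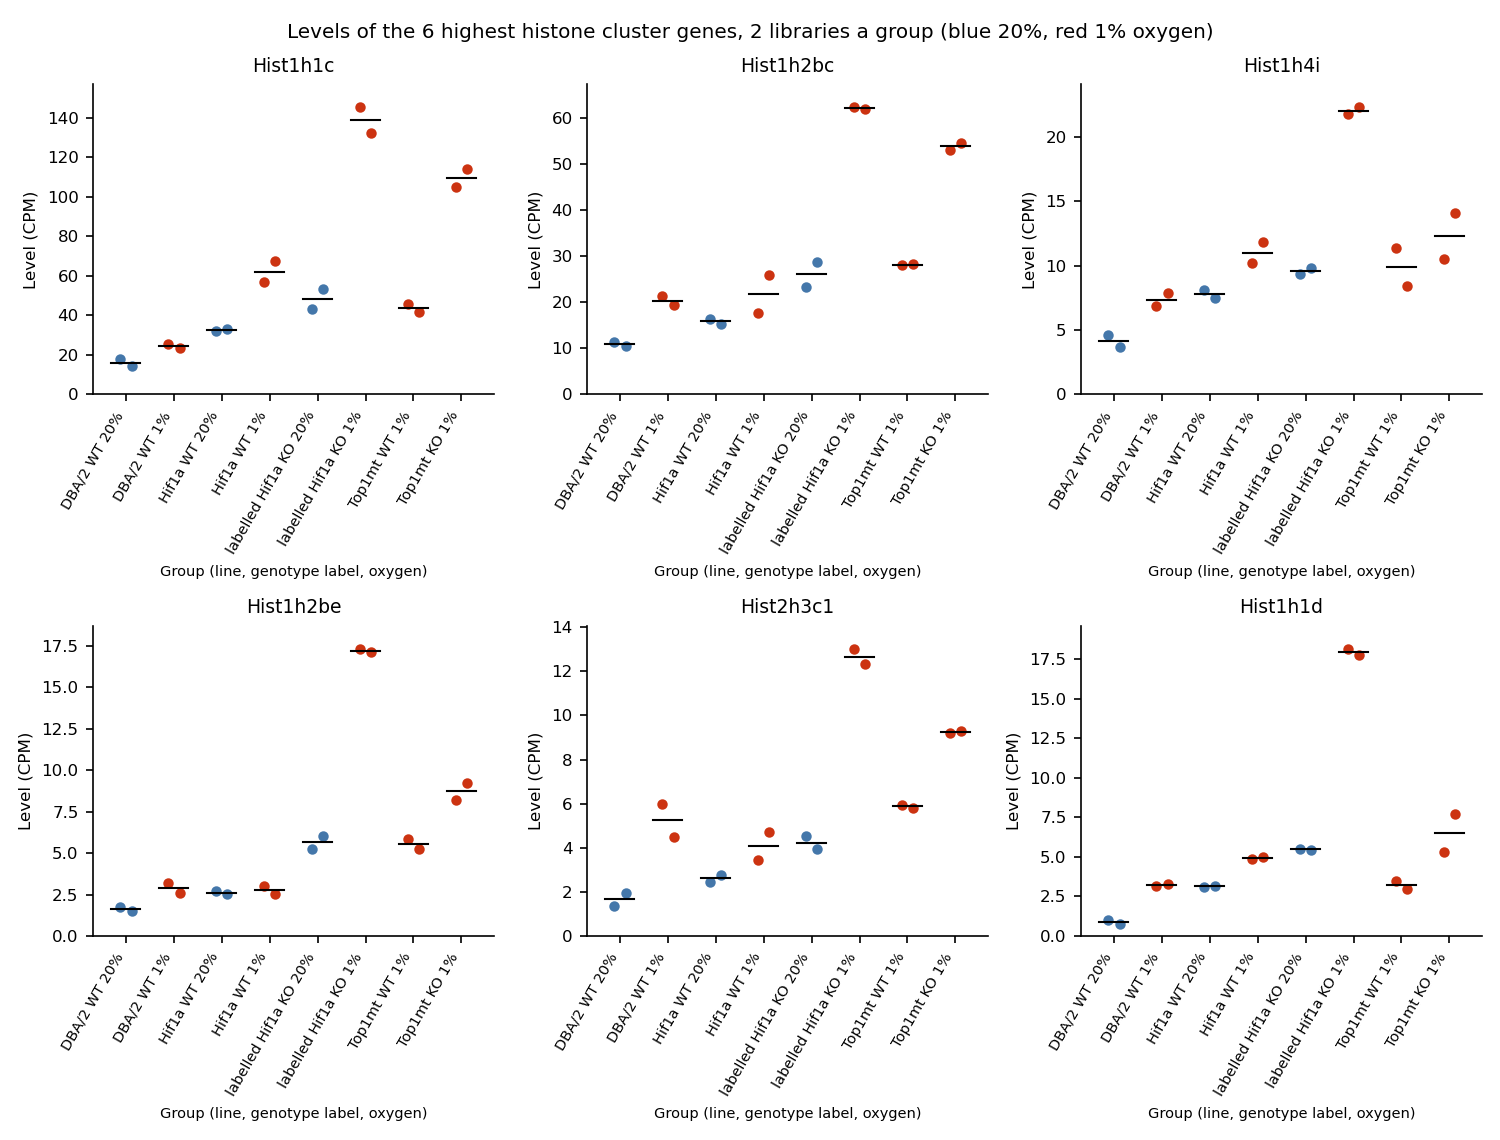
Levels (CPM) of the 6 histone cluster genes with the highest mean in each of the 16 libraries (points) and the mean of each group of 2 (lines). In every panel the libraries labelled Hif1a KO at 1% oxygen are the highest, as for Hist1h2be with 17.3 and 17.1 CPM against 1.49 to 9.25 elsewhere.

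Between the wild types of the Hif1a and DBA/2 lines, the test of the difference in oxygen response called 6 of 20 genes lower in the Hif1a line and none higher, against 30.9% and 15.1% of all genes (46% in all). Of called genes 32.9% were higher, or 51.5% with median-of-ratios scaling, which moved the median of all genes from -0.13 to -0.01. The share of members is thus near that of all genes. Called lower were Hist2h3c1 (-0.75 ± 0.21, adjusted p = 0.0073), Hist3h2a (-0.70 ± 0.26), Hist2h2be (-0.70 ± 0.25), Hist1h1d (-0.63 ± 0.20), Hist1h2be (-0.51 ± 0.18) and Hist1h2bc (-0.43 ± 0.17). None of the 6 calls held when each of the 8 libraries was left out in turn, with adjusted p-values of 0.051 to 0.33 for the lost calls, and the count fell to 3 without any 1 of the 4 DBA/2 libraries or the first wild type library of the Hif1a line at 20%. Median-of-ratios scaling and DESeq2 each left 2 genes lower. Hist1h1c pointed the other way at 0.32 ± 0.15 (adjusted p = 0.08, and 1 gene higher at an unadjusted p under 0.05), and edgeR, DESeq2 and median-of-ratios scaling called it higher. The lines differ in strain background, and the Hif1a line's names at 1% carry 6d and the letter B while DBA/2 names carry neither. These differences cannot be told apart here.

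**Figure D4:**
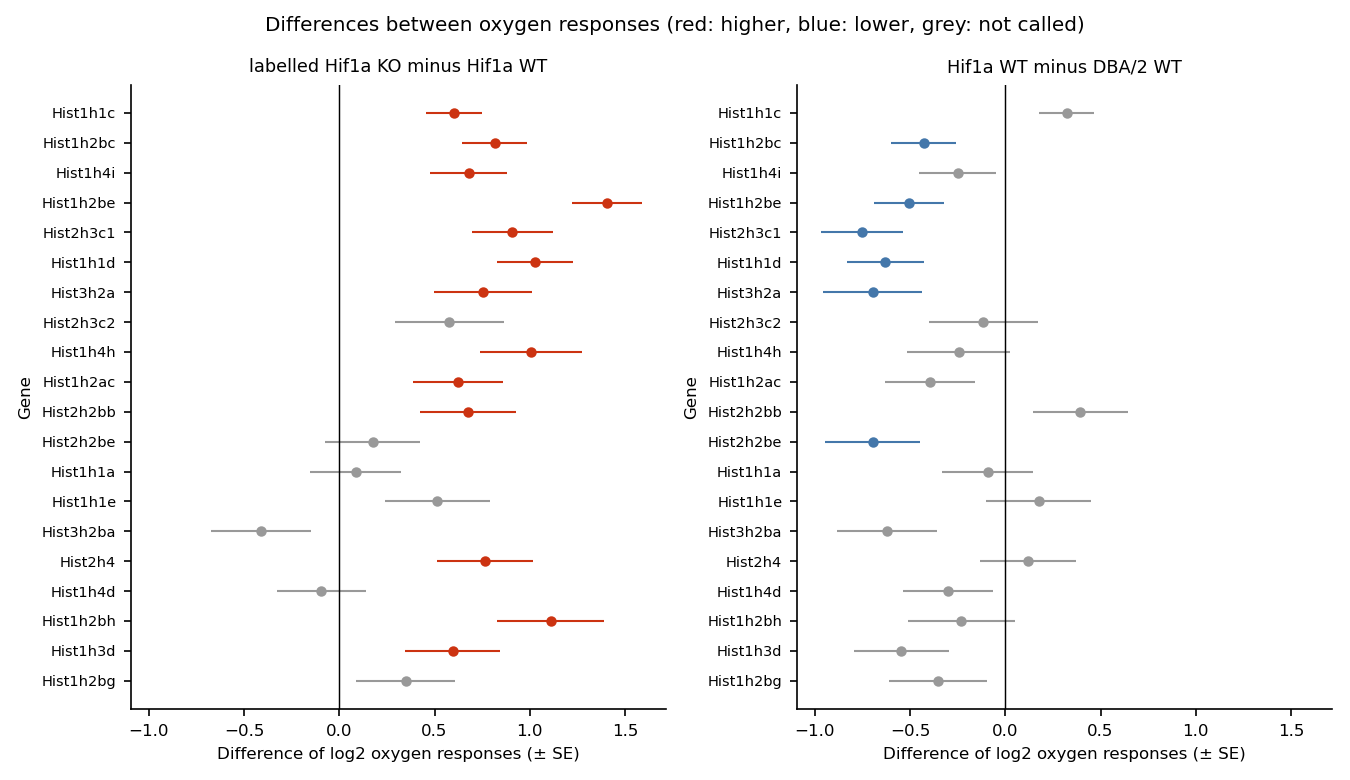
Differences between oxygen responses (log2 of CPM + 1, ± SE) of the 20 tested histone cluster genes, labelled Hif1a KO minus wild type on the left and Hif1a wild type minus DBA/2 wild type on the right; red is called higher, blue lower and grey not called. On the left 13 genes are red, led by Hist1h2be at 1.40, and on the right 6 are blue.

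In the Top1mt line at 1% oxygen, 15 of the 20 genes were called higher in KO and none lower (0 lower at an unadjusted p under 0.05, and 0 by edgeR and by DESeq2), against 25.2% and 33.2% of all genes (58.4% in all). The median difference of the 20 was 0.57, against -0.04 over all genes, and called were all 4 H1 genes, both H2A genes, 5 of 7 H2B, 2 of 3 H3 and 2 of 4 H4 genes. Hist1h1c read 45.8 and 41.7 CPM in wild type and 105 and 114 in KO, a rise of 1.31 ± 0.10 (adjusted p = 3.1e-09). Hist1h2bc read 28.1 and 28.3 CPM in wild type and 53.2 and 54.7 in KO, a rise of 0.91 ± 0.12 (adjusted p = 2.4e-06). Each library of KO thus lay well above both of wild type for the 2 leading genes. Hist1h1a, called in no other comparison, read 0.689 and 0.932 CPM in wild type and 2.29 and 1.60 in KO, a rise of 0.69 ± 0.17 (adjusted p = 0.0016). Hist1h4i read 11.4 and 8.44 CPM in wild type and 10.5 and 14.1 in KO, with overlapping groups, and was not called (0.28 ± 0.14, adjusted p = 0.099).

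Of the 15 Top1mt calls, 6 held without any one of the 4 libraries: Hist1h1c, Hist1h2bc, Hist1h2be, Hist2h3c1, Hist1h1d and Hist1h1a. The other 9 (Hist1h1e, Hist1h2ac, Hist1h2bg, Hist1h2bh, Hist1h3d, Hist1h4d, Hist1h4h, Hist2h2be and Hist3h2a) were lost in at least 1 such omission, at adjusted p-values of 0.052 to 0.25, and the count of calls ran from 10 to 12. All 20 fibroblast markers were called higher, with sums of 27449 and 27447 CPM in wild type and 53213 and 52013 in KO. The S phase genes were called lower in 28 of 31 cases, with sums of 5191 and 5243 CPM in wild type and 3598 and 3615 in KO, and all 16 germ cell markers were called lower. The ratio of the histone sums was 2.05, and the part of the fibroblast shift in it was not tested.

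**Figure D5:**
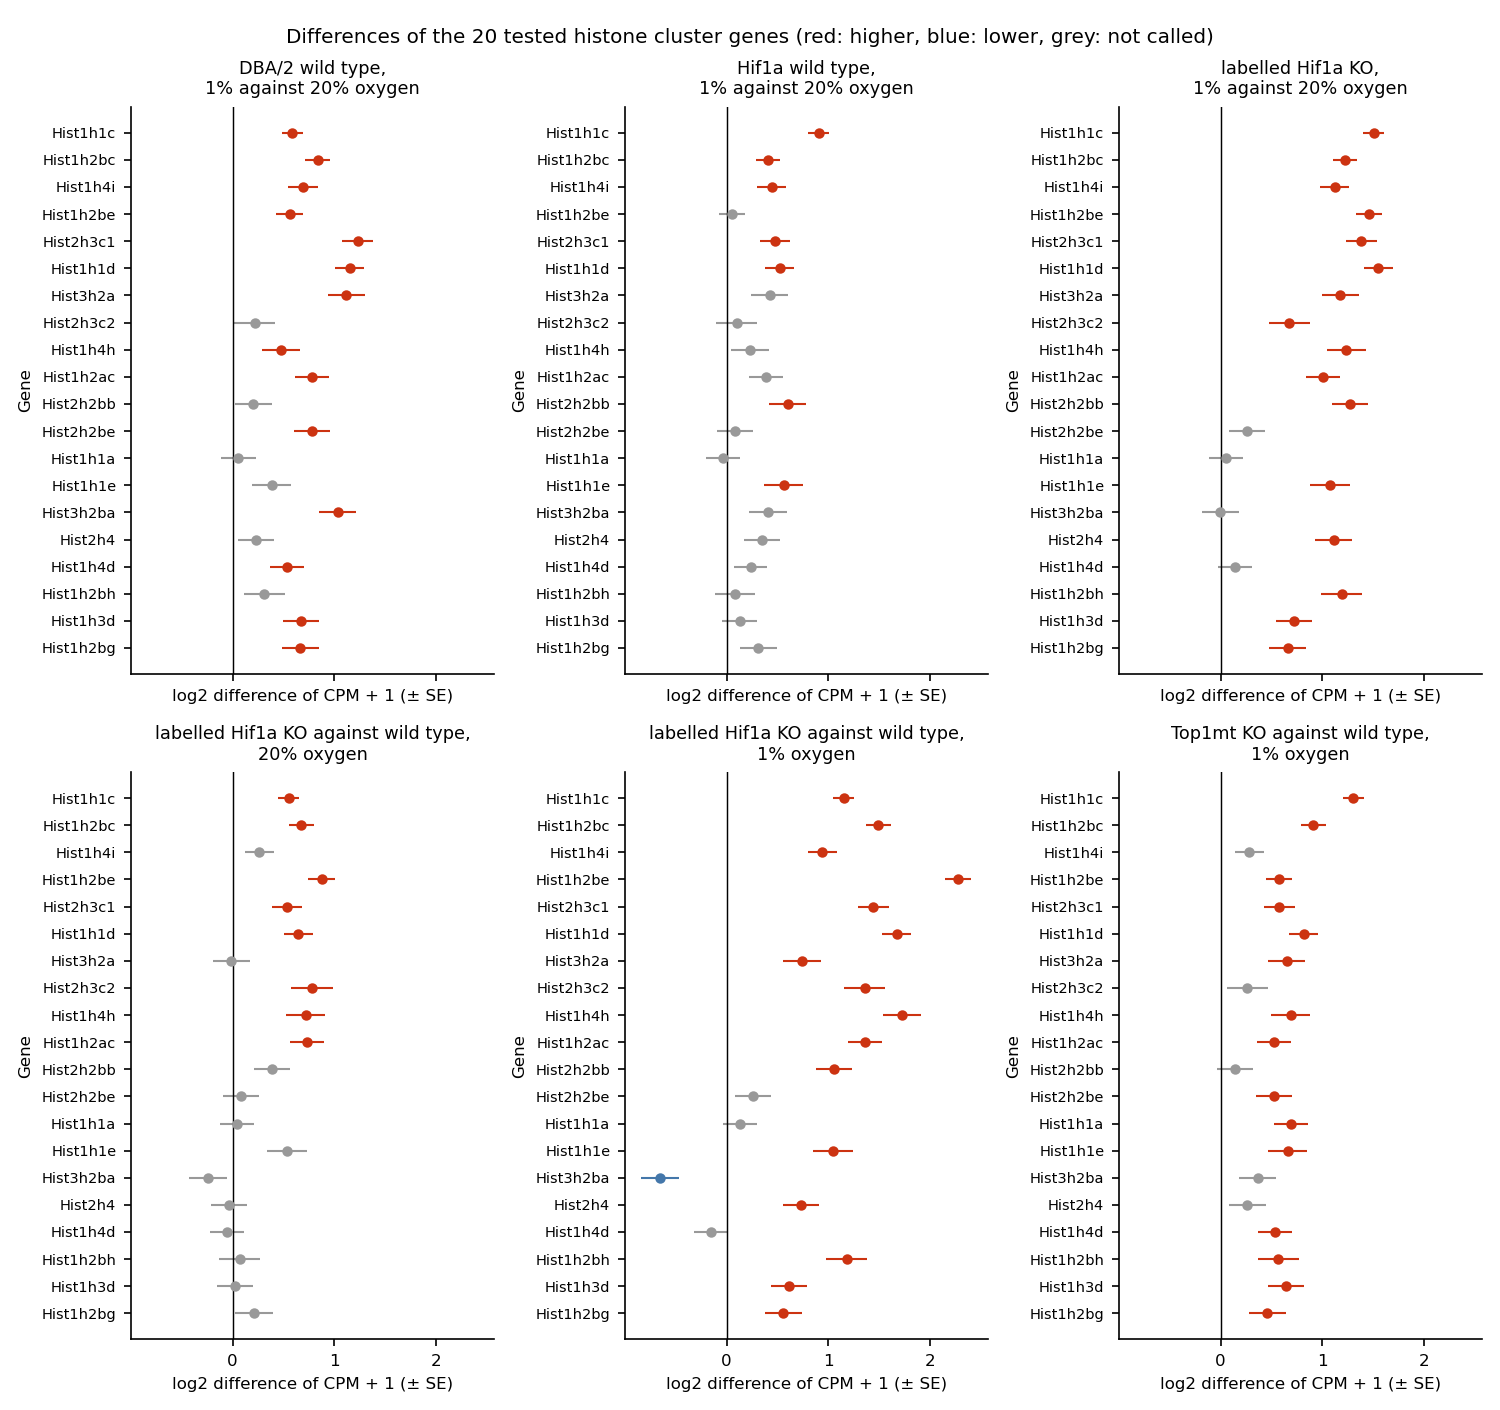
Differences (log2 of CPM + 1, ± SE) of the 20 tested histone cluster genes, ordered by mean level, in the 6 comparisons; red is called higher, blue lower and grey not called at an adjusted p of 0.05. Called higher are 14, 7 and 16 genes in the upper row and 8, 16 and 15 in the lower row, and 1 gene, Hist3h2ba, is called lower.

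Genes whose model ends at the stem-loop were mostly too low to test one by one, so their sum is given. Over these 22 genes it was 1.86 and 2.13 CPM in DBA/2 at 20% and 4.04 and 4.22 at 1%, a ratio of 2.07. In Hif1a wild type it was 3.0 and 3.06 CPM at 20% and 2.62 and 2.73 at 1%, a ratio of 0.884. In labelled Hif1a KO it was 4.10 and 4.27 CPM at 20% and 8.78 and 7.21 at 1%, and in Top1mt 2.51 and 3.26 in wild type and 6.04 and 7.43 in KO. Both sums at 1% lay above both at 20% in DBA/2 and in labelled Hif1a KO, and both in Top1mt KO above both in wild type, while in Hif1a wild type the libraries at 1% lay below those at 20%. The sum includes Hist1h4h, the 1 tested gene among them, which made up most of it in labelled Hif1a KO at 1%. Without it, the other 21 genes summed to 2.51 and 2.85 CPM in labelled Hif1a KO at 20% and 3.14 and 2.96 at 1%, a ratio of 1.14 against 1.91 with it. The ratio without it was 1.97 in DBA/2, 0.751 in Hif1a wild type and 2.45 in Top1mt. Over the 23 genes running past the stem-loop, the sums in Hif1a wild type were 56.8 and 57.1 CPM at 20% and 90.1 and 107 at 1%.

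The next list holds factors that make and process histone mRNA. Of 22 such genes tested, 5 were called higher and 4 lower in DBA/2 at 1% oxygen, 1 and 9 in Hif1a wild type, 1 and 21 in labelled Hif1a KO, 0 and 2 in labelled KO against wild type at 20%, 2 and 17 at 1%, and 1 and 15 in Top1mt KO. Of all genes, 54.7% were lower in labelled Hif1a KO, 49.1% in labelled KO against wild type at 1% and 33.2% in Top1mt KO, and in these 3 comparisons all 16 germ cell markers were lower and all 20 fibroblast markers higher. Slbp, which binds the stem-loop, averaged 138 CPM in labelled Hif1a KO at 20% and 81.4 at 1% (-0.75 ± 0.05, adjusted p = 3.8e-11), and fell by 0.51 in Top1mt KO (adjusted p = 5.1e-08). In DBA/2 Slbp averaged 172 CPM at 20% and 183 at 1%, which was not called (0.09 ± 0.05, adjusted p = 0.14). Npat, the coactivator that turns on histone genes at the start of S phase, rose in DBA/2 from 168 to 194 CPM (0.20 ± 0.06, adjusted p = 0.007). In labelled Hif1a KO it fell from 135 to 74.3 CPM (-0.85 ± 0.06, adjusted p = 7.4e-11). With median-of-ratios scaling the counts in this list were 4 and 5 in DBA/2, 3 and 6 in Hif1a wild type and 1 and 16 in labelled Hif1a KO.

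Histone chaperones and assembly factors carry new histones to DNA. Of 16 tested, 5 were called higher and 3 lower in DBA/2 at 1% oxygen, 1 and 6 in Hif1a wild type, 0 and 15 in labelled Hif1a KO, 0 and 4 in labelled KO against wild type at 20%, 0 and 16 at 1%, and 0 and 14 in Top1mt KO, beside the same shares of all genes and the same marker shifts as above. With median-of-ratios scaling the counts were 4 and 5 in DBA/2, 3 and 5 in Hif1a wild type and 1 and 12 in labelled Hif1a KO. Replication-independent histone genes, which are made throughout the cycle with ordinary poly(A) tails, gave 4 higher and 3 lower of 11 in DBA/2, 1 and 4 in Hif1a wild type (4 and 2 with that scaling), 3 and 8 in labelled Hif1a KO (3 and 5) and 3 and 3 in Top1mt KO. Over all genes, 31.8% were higher and 25.5% lower in DBA/2, and 18.4% and 34.6% in Hif1a wild type. The shares were 25.2% and 54.7% in labelled Hif1a KO and 25.2% and 33.2% in Top1mt KO. In labelled Hif1a KO, more of the replication-independent genes were called lower than higher with either scaling, as were more of all genes without that scaling. In Hif1a wild type the order changed with the scaling. H1f0, a linker histone in this list, was called higher in each comparison given here for the list. It went from 40.0 to 62.1 CPM in DBA/2 (0.62 ± 0.06, adjusted p = 2.2e-08), from 72.7 to 82.1 in Hif1a wild type (0.17 ± 0.06, adjusted p = 0.015), from 80.2 to 153 in labelled Hif1a KO (0.92 ± 0.06, adjusted p = 1.2e-11) and from 81.1 to 138 in Top1mt KO (0.76 ± 0.06, adjusted p = 1.4e-09). Meiotic and postmeiotic genes gave 8 higher and 2 lower of 11 in DBA/2, 5 and 2 in Hif1a wild type, 0 and 11 in labelled Hif1a KO (0 and 7 with that scaling) and 1 and 5 in Top1mt KO. These counts stand beside the same shares of all genes.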

How the data were processed

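The deposited values were CPM of 16 libraries over 21924 protein-coding genes. The submitters' processing notes name cutadapt 1.16, STAR 2.6.0c, HTSeq 0.11.2, DESeq2 1.22.2 and mm10, and roles, annotation and strand setting were not given. Every value of the deposited CPM was a whole number of reads within 0.01, so reads were recovered. The main test was limma 3.58.1 (R 4.3.3) on log2(CPM + 1) over genes with at least 1 CPM in at least 2 libraries, with 1 mean for each of 8 groups, empirical Bayes with a trend and Benjamini-Hochberg adjustment; the plan named edgeR for whole counts, and edgeR 4.0.16 and DESeq2 1.42.0 were run on recovered reads as alternatives. On simulated data for the DBA/2 comparison (14841 genes), 71.6% of genes changed 1.5-fold and 92.5% changed 2-fold were recovered, and 5.41% of calls were false. Only a small share of genes was changed there, while 57.4% were called in the real comparison. Many tested members also lie near 1 CPM, so these rates may not carry over to them. The members and lists were chosen with earlier results of these data known. Named genes were the 20 members with the highest mean, the leader of each class, the 3 testis histones, 3 genes known for polyadenylated forms, the 4 largest called rises and falls per comparison at a mean of at least 1 CPM, Hif1a, Top1mt, Slbp, Npat and up to 4 genes of each list with the smallest adjusted p; the 7 members at 0 and the untested genes named under other filters were chosen after their values were seen. Models and stem-loops came from GENCODE M21. The other alternatives were pseudocount 0.25, no filter, a filter at 5 CPM, median-of-ratios scaling, a replicate block and leaving out each library.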

Additional observations from a re-analysis of the deposited data

Results flagged for a closer look

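The oxygen response of the histone cluster genes differed between labelled Hif1a KO and wild type of the Hif1a line by a test of the difference itself, for 13 of the 20 genes tested, all higher, where 19% of all genes were higher and 39% lower. edgeR called 9 and DESeq2 8, and 8 calls held without any one library. Of the 13, Hist1h2bh and Hist2h4 passed the filter only through labelled Hif1a KO and Top1mt KO at 1% oxygen. Hist1h3d reached 1 CPM only in libraries at 1% oxygen, and in the Hif1a line only in labelled KO. The differences (log2 of CPM + 1, labelled KO minus wild type) were 1.40 for Hist1h2be, 1.11 for Hist1h2bh, 1.03 for Hist1h1d, 1.01 for Hist1h4h, 0.91 for Hist2h3c1, 0.82 for Hist1h2bc, 0.77 for Hist2h4, 0.75 for Hist3h2a, 0.68 for Hist1h4i, 0.68 for Hist2h2bb, 0.62 for Hist1h2ac, 0.60 for Hist1h1c and 0.60 for Hist1h3d. It also differed between the wild types of the Hif1a and DBA/2 lines, for 6 of the 20 genes, all lower, which is near the 30.9% of all genes called lower, and 0 of the 6 calls held when each library was left out in turn. Those differences (Hif1a line minus DBA/2) were -0.75 for Hist2h3c1, -0.70 for Hist3h2a, -0.70 for Hist2h2be, -0.63 for Hist1h1d, -0.51 for Hist1h2be and -0.43 for Hist1h2bc. With 2 libraries a group, no library could be tested as standing apart from its group.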

How the results depend on the processing

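No called difference of a histone cluster gene reversed under any alternative run. Counts below are of members called. With a filter at 5 CPM only 6 members were tested, and higher calls were 6 in DBA/2, 6 in labelled Hif1a KO, 5 in labelled KO against wild type at 20%, 6 at 1% (with 0 lower), 5 in Top1mt and 6 for the difference between labelled KO and wild type. With no filter 60 members were tested: 1 was lower in DBA/2 (Hist4h4), 11 higher and 1 lower (Hist1h2ag) in Hif1a wild type, 26 higher and 1 lower (Hist1h2bm) in labelled KO, 2 lower in labelled KO against wild type at 1% (Hist1h2bf and Hist3h2ba), 24 higher in Top1mt and 1 higher (Hist4h4) for the line difference; these added genes rest on few reads. DESeq2 gave 0 lower in labelled KO against wild type at 1%, 8 higher for the difference between labelled KO and wild type, and 1 higher (Hist1h1c) and 2 lower for the line difference, which median-of-ratios scaling gave too. edgeR gave 1 higher (Hist1h1c) for the line difference. Leaving out 1 library at a time, higher calls ran from 12 to 14 in DBA/2, 3 to 9 in Hif1a wild type, 15 to 16 in labelled KO, 5 to 9 in labelled KO against wild type at 20%, 15 to 16 at 1% (1 lower throughout), 10 to 12 in Top1mt, 9 to 14 for the difference between labelled KO and wild type, and 0 to 1 higher with 3 to 5 lower for the line difference. Of the called differences that could be compared, 14 of 94 were lost with DESeq2, 6 of 96 with edgeR, 5 of 96 with scaling, 3 with no filter and 3 with pseudocount 0.25. The replicate block, tried because groups share replicate numbers that no source ties to a shared culture, lost 0 of 96 and left every count as it was, with 14 in DBA/2. The cause of these changes was not tested, apart from the fewer or more genes tested under other filters and the fewer libraries when 1 was left out. The 47 untested members had a median of 32 reads in all, and why they were low was not tested.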
